A study of Mus musculus with 24 samples.

Results

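Transcript levels of 10 genes of the MHC class I antigen presentation pathway were followed in mouse kidney through obstruction of the ureter and recovery from it. The genes were chosen by symbol: the classical heavy chains H2-K1 and H2-D1, the light chain B2m, the peptide transporter subunits Tap1 and Tap2, the loading factor Tapbp, the immunoproteasome subunits Psmb8, Psmb9 and Psmb10, and the transactivator Nlrc5. All 10 had a row in the deposited table of 14785 genes, which holds no gene with a mean under 1 over the libraries.

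Kidneys came from 24 male C57/BL6 mice in 6 groups of 4. The labels give an age of 8 weeks in all 6 groups, read here as the age at the start. If so, animals with longer obstruction or recovery were older when sampled, and age cannot be told apart from time. The sham group had sham surgery. UUO2 and UUO7 had unilateral ureter obstruction, in which the ureter of 1 kidney is ligated, for 2 and 7 days. R1W, R2W and R4W had 7 days of obstruction, after which the ureter was reimplanted and the animals recovered for 1, 2 and 4 weeks. Per the series' design text, 10 animals were used per group and 4 of them were chosen for sequencing; the basis of that choice is not given in the sources used here. R4W replicate 2 is a 4-week animal by its title and a 2-week animal by its treatment label, and it was grouped by title. RNA was from whole pieces of tissue, described in the series title as cortical. In such bulk samples more cells of a type and more RNA per cell cannot be told apart.

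MHC class I molecules display peptides from inside the cell to CD8+ T cells and natural killer cells. A heavy chain pairs with beta-2 microglobulin, and peptides made by the proteasome are pumped into the endoplasmic reticulum by the TAP transporter and loaded with the help of tapasin. Interferon gamma and other inflammatory signals exchange 3 catalytic subunits of the proteasome for the immunosubunits, which changes the peptides that are cut. Leukocytes carry the immunoproteasome at rest, whereas most parenchymal cells carry little of it unless stimulated.

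Promoter sequence was taken from RefSeq (GRCm38.p6), which had entries for 8 of the 10 genes. The 250 bases before each annotated start were searched on both strands for 3 motifs. GAAANNGAAA, the core of the interferon-stimulated response element, is in 2.98% of all 32851 promoter windows of this length. TTCNNNGAA, the gamma-activated site, is in 7.02%, and the NF-kappaB consensus is in 7.25%. The interferon-stimulated element was found in B2m only, the gamma-activated site in Psmb8 only, and the NF-kappaB consensus in B2m, H2-K1 and H2-D1. None of the 3 was found in the windows of Tap1, Tapbp, Psmb9 or Psmb10. The 30 bases around these matches are shown because both heavy chains and their light chain hold the same motif; capitals mark the motif letters, and the matches in H2-K1 and H2-D1 are 2 overlapping ones. A match describes the letters and does not show that a factor binds there. A missing match holds only for these letter patterns in these 250 bases and does not show that an element is absent.
B2m: acatGAAACTGAAAatgGGAAAGTCCCttt
H2-K1: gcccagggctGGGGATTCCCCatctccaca
H2-D1: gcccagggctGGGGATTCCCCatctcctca
Psmb8: gtcctccgctgTTCCCAGAAgatgcccccc
The B2m stretch is chr2:122147544-122147573 on the plus strand, and the first motif, GAAACTGAAA, is the interferon-stimulated element. The H2-K1 stretch is chr17:34000439-34000468 on the minus strand and the H2-D1 stretch is chr17:35262913-35262942 on the plus strand. These 2 stretches were identical at 29 of 30 bases. The Psmb8 stretch is chr17:34198087-34198116 on the plus strand. In the GENCODE M21 annotation the B2m and H2-K1 stretches hold no exon (that of B2m is within Patl2, on the other strand), while those of H2-D1 and Psmb8 lie in exons of other transcripts of the same gene.

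Values are FPKM (fragments relative to transcript length and to the total of the library), a unit inferred here from the values. Low values in 20 libraries fell on steps of whole fragments that imply between 24850000 and 35270000 fragments per library. With the mean length of each gene's annotated transcripts, this puts between 103 (Nlrc5) and 26164 (B2m) fragments behind a gene's value in a library. The 4 UUO2 libraries showed no such steps and their depth is unknown. The series' design text speaks of 20 libraries run together and does not say which, so a difference in sequencing between UUO2 and the other groups cannot be told apart from the 2 days of obstruction. Kidney tubule genes were high in sham, with a summed level over 6 proximal tubule markers of 3440 to 3961 FPKM. Sham replicate 2 also held markers of other tissue: 36.8 FPKM summed over 4 adipose genes, against at most 0.60 in the other sham libraries, and 39.5 FPKM over 6 urothelial genes, against at most 3.10. R4W replicates 1 and 3 held 270 and 65.0 FPKM of the adipose genes, where the other R4W libraries had at most 0.75.

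All 10 genes rose during obstruction and none was called lower than sham at any time. After 2 days B2m was 2.22 times its sham mean and Psmb10 3.25 times. After 7 days H2-K1 and H2-D1 were 4.97 and 4.49 times their sham means and the immunosubunits 7.63 to 8.66 times. The levels stayed high after reversal: at 4 weeks B2m was 3.87 times sham and Psmb8 6.23 times. Each of UUO2, UUO7, R1W, R2W and R4W was tested against sham by limma on log2(FPKM + 1), with adjustment over all 14785 genes and a call at an adjusted p under 0.05.

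**Figure D1:**
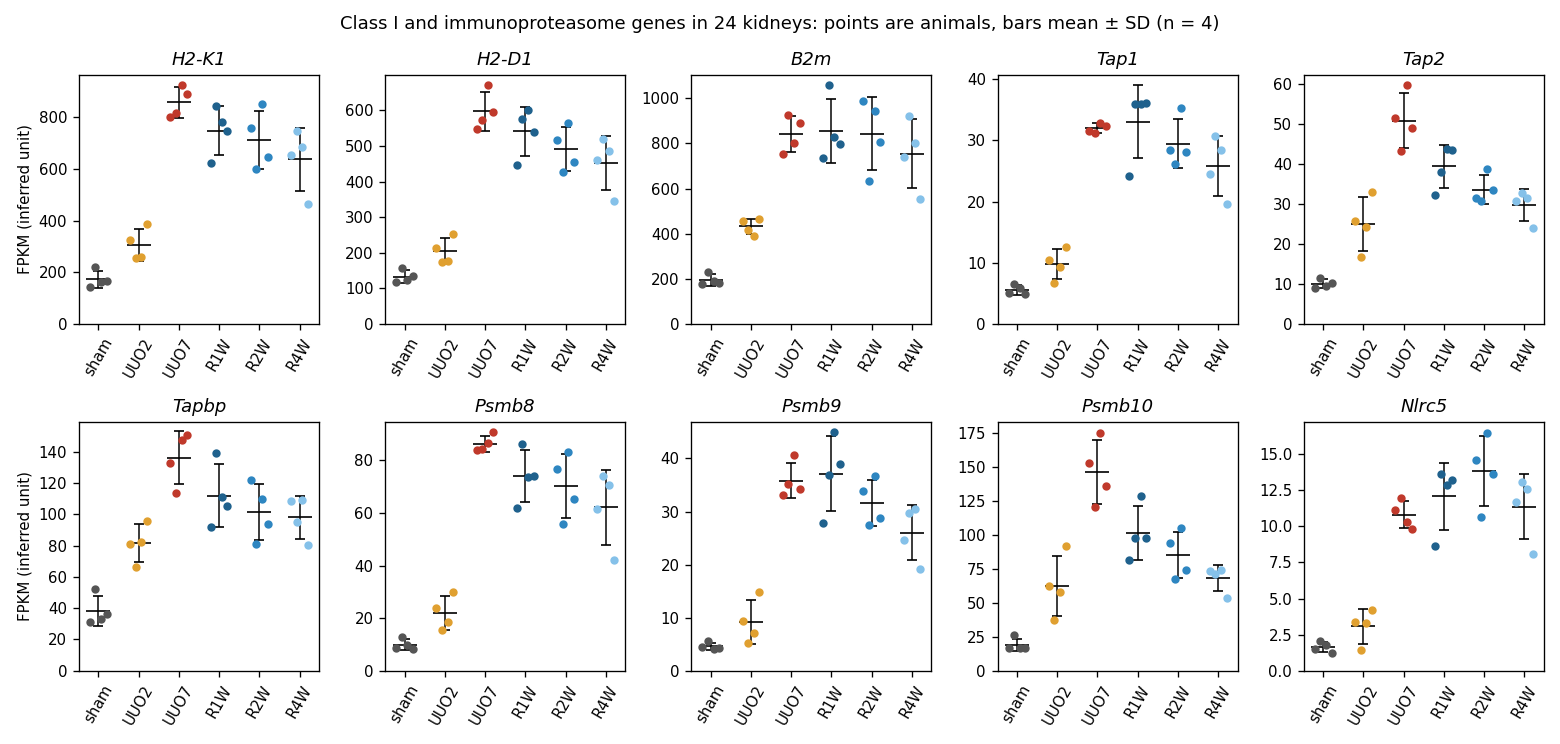
Level of each of the 10 genes in every kidney (y axis, FPKM on a linear scale from 0; x axis, the 6 groups), with animals as points and mean ± SD (n = 4) as bars. Every gene is higher in all 4 UUO7 libraries than in all 4 sham libraries, and the recovery groups stay above sham.

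H2-K1 (chromosome 17, 33996017 to 34000333, minus strand) and H2-D1 (chromosome 17, 35262730 to 35267499, plus strand) encode the classical heavy chains K and D that present peptide to CD8+ T cells. H2-K1 was 144.92, 218.70, 161.06 and 166.51 FPKM in the sham animals and 325.93, 256.07, 260.44 and 386.93 FPKM in UUO2. It was 800.44, 817.06, 925.45 and 891.45 FPKM in UUO7, so the 3 groups did not overlap and each step was upward. In R4W it was 655.13, 747.61, 684.24 and 464.54 FPKM, below every UUO7 library and above every UUO2 library. H2-K1 thus rose by 2.32 on the log2 scale from sham to UUO7 (SE 0.16, limma adjusted p = 1.21e-10). H2-D1 ranged from 116.88 to 156.43 FPKM in sham, from 546.52 to 671.75 in UUO7 and from 344.47 to 518.48 in R4W, with log2 fold changes of 2.16 (UUO7) and 1.75 (R4W) against sham. Per length, H2-K1 had the higher mean of the pair in every group. Heavy chain genes are close copies, but of the 100-base windows of the longest coding transcript of H2-K1 0% were identical in another gene, and of H2-D1 4.64%.

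B2m (chromosome 2, 122147686 to 122153083, plus strand) encodes the light chain shared by all class I molecules. It was 179.06, 232.45, 188.81 and 180.20 FPKM in sham and 455.60, 417.49, 389.96 and 466.12 FPKM in UUO2. In UUO7 it was 752.43, 925.49, 802.45 and 889.77 FPKM, and in R1W 736.90, 1059.74, 828.51 and 796.36 FPKM. The sham, UUO2 and UUO7 libraries did not overlap, while UUO7 and R1W did. Its log2 fold change against sham was 1.15 in UUO2 and 2.11 in UUO7, each with an SE of 0.15, and the limma adjusted p was 3.27e-06 and 2.15e-10. In R4W it was 754.5 ± 154 FPKM (SD, n = 4), and the difference of -0.18 from UUO7 did not pass the test (limma adjusted p = 0.340). The gene lies wholly within Patl2 on the other strand, and whether counting used strand is not given in the sources used here.

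Tap1 (chromosome 17, 34187553 to 34197225, plus strand) and Tap2 (chromosome 17, 34203527 to 34216321, plus strand) encode the pair of chains that form the peptide transporter. Tap1 was 5.02, 6.52, 5.87 and 4.86 FPKM in sham, 10.42, 6.77, 9.35 and 12.62 FPKM in UUO2, and 31.52, 31.14, 32.92 and 32.31 FPKM in UUO7. The UUO7 animals were closely alike, with an SD of 0.798 FPKM. Tap1 was 24.15, 35.99, 36.01 and 36.13 FPKM in R1W and 24.44, 30.66, 28.43 and 19.57 FPKM in R4W. Its log2 fold change against sham was 2.33 in UUO7 and 2.02 in R4W, each with an SE of 0.16. Tap2 was 10.01 ± 1.14 FPKM in sham, 24.92 ± 6.72 in UUO2, 50.77 ± 6.85 in UUO7 and 29.72 ± 3.90 in R4W (SD, n = 4). The log2 fold change of Tap2 against sham was 2.23 in UUO7 and 1.48 in R4W. In UUO2 the log2 fold change was 0.69 for Tap1 and 1.20 for Tap2; the difference between the 2 genes was not tested. Gm15821 and Gm20496 overlap Tap2 on the other strand over 3148 and 1923 bases.

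Tapbp (chromosome 17, 33915899 to 33929288, plus strand) encodes tapasin, which holds the empty class I molecule at the transporter. It was 30.97, 52.10, 33.22 and 36.00 FPKM in sham, 80.93, 66.36, 82.33 and 95.98 FPKM in UUO2, and 133.02, 113.63, 147.39 and 150.60 FPKM in UUO7. No libraries overlapped between these groups. Tapbp had the smallest log2 fold change of the 10 genes in UUO7 against sham, 1.83 with an SE of 0.16, and also in R4W against sham, 1.36. Zbtb22 overlaps it on the other strand over 3422 bases.

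Psmb8 (chromosome 17, 34197721 to 34201454, plus strand), Psmb9 (chromosome 17, 34181988 to 34187764, minus strand) and Psmb10 (chromosome 8, 105935735 to 105938444, minus strand) encode the immunosubunits beta5i, beta1i and beta2i. Psmb8 was 8.63, 12.90, 9.91 and 8.45 FPKM in sham and 83.92, 84.22, 86.56 and 90.65 FPKM in UUO7. The UUO7 animals were alike and far above the highest sham animal. Its log2 fold change of 3.01 (SE 0.18, limma adjusted p = 3.27e-11) was the largest of the 10 genes, and in R4W against sham it was 2.51. Psmb9 was 4.55, 5.62, 4.06 and 4.28 FPKM in sham, 9.31, 5.22, 7.20 and 14.87 FPKM in UUO2 and 33.20, 35.11, 40.63 and 34.30 FPKM in UUO7. UUO2 and sham overlapped for Psmb9, because UUO2 replicate 2 lay below sham replicate 2. Psmb9 and Tap1 stand head to head and their gene models overlap by 212 bases on opposite strands.

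Psmb10 was 16.82, 25.97, 16.80 and 17.05 FPKM in sham and 62.61, 37.47, 57.66 and 91.49 FPKM in UUO2. Its log2 fold change in UUO2, 1.61 with an SE of 0.21 (limma adjusted p = 3.5e-06), was the largest of the 10 genes at that time. It was 152.75, 120.79, 175.22 and 135.85 FPKM in UUO7, 81.83, 97.30, 128.39 and 97.82 FPKM in R1W, and 73.48, 71.45, 74.47 and 53.82 FPKM in R4W. The R4W libraries lay below all of UUO7 and of R1W and within the range of UUO2. Between UUO7 and R4W the mean dropped from 146.2 to 68.3 FPKM, a log2 change of -1.08 (SE 0.21, limma adjusted p = 0.000363). Antisense genes on the other strand overlap Psmb10 over its whole 2710 bases (Gm16156) and Psmb8 over 2139 bases (Gm20496), so without strand their reads could not be told apart.

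Nlrc5 (chromosome 8, 94434356 to 94527272, plus strand) encodes the transactivator that drives class I genes through the SXY module of their promoters. It was the lowest of the 10 genes per length: 1.49, 2.03, 1.79 and 1.22 FPKM in sham, and 11.12, 11.98, 10.31 and 9.81 FPKM in UUO7. In UUO7 it was 2.17 above sham on the log2 scale (SE 0.20, limma adjusted p = 3.74e-09). In UUO2 it was 3.35, 1.41, 3.28 and 4.24 FPKM; replicate 2 lay within the sham range, and the log2 fold change of 0.58 (limma adjusted p = 0.0176) was the smallest of the 10 on the log2(FPKM + 1) scale. The ratio of mean FPKM was 1.88 for Nlrc5, above those of H2-K1 (1.78), Tap1 (1.76) and H2-D1 (1.54). Its mean was highest in R2W, where the animals had 14.58, 10.62, 16.48 and 13.61 FPKM. In R4W it was 11.66, 13.06, 12.58 and 8.11 FPKM, overlapping UUO7, and the difference of 0.05 did not pass the test (limma adjusted p = 0.855).

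In UUO2 against sham limma called 10 of the 10 genes higher, where 32.3% of all genes were called higher. Their median log2 fold change was 0.93, and that of all genes tested was 0.09. For 8 of the 10 no UUO2 library overlapped a sham library, as for 28.3% of all genes in that direction. Psmb9 and Nlrc5 were the other two. With a log2 change of at least 1 besides, 5 were called (B2m, Tap2, Tapbp, Psmb8 and Psmb10), and 5.74% of all genes. The Nlrc5 call was lost with a pseudocount of 10 (limma adjusted p = 0.135), in a fit on these 2 groups alone (0.0659), and without sham replicate 4 (0.0587), UUO2 replicate 1 (0.0512) or UUO2 replicate 4 (0.0814).

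In UUO7 against sham 10 of 10 genes were called higher, where the share of all genes was 60.1%. The median log2 fold change was 2.28 for the 10 genes and 0.42 for all genes. Calls of at least 1 on the log2 scale covered 10 of the 10 genes and 21.8% of all genes. No UUO7 library overlapped a sham library in any of the 10, which held for 56.9% of all genes. FPKM is relative to the whole library, so libraries were also rescaled, each by the median over genes of its value divided by the gene's geometric mean, which moved the median of all genes from 0.42 to 0.01. On that scale 10 of 10 genes were again called higher (36.5% of all genes), with a median of 1.82 and a range of 1.35 (Tapbp) to 2.55 (Psmb8). Without sham replicate 2 the 10 calls stood as well, and the log2 fold changes ran from 1.99 (Tapbp) to 3.13 (Psmb8). In UUO7 against UUO2 10 of 10 genes were called higher (52.0% of all genes), from 0.74 in Tapbp to 1.97 in Psmb8. After rescaling the 10 calls stood, where 4440 of 14785 genes were called higher, from 0.39 in Tapbp, whose libraries then overlapped, to 1.63 in Psmb8.

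**Figure D2:**
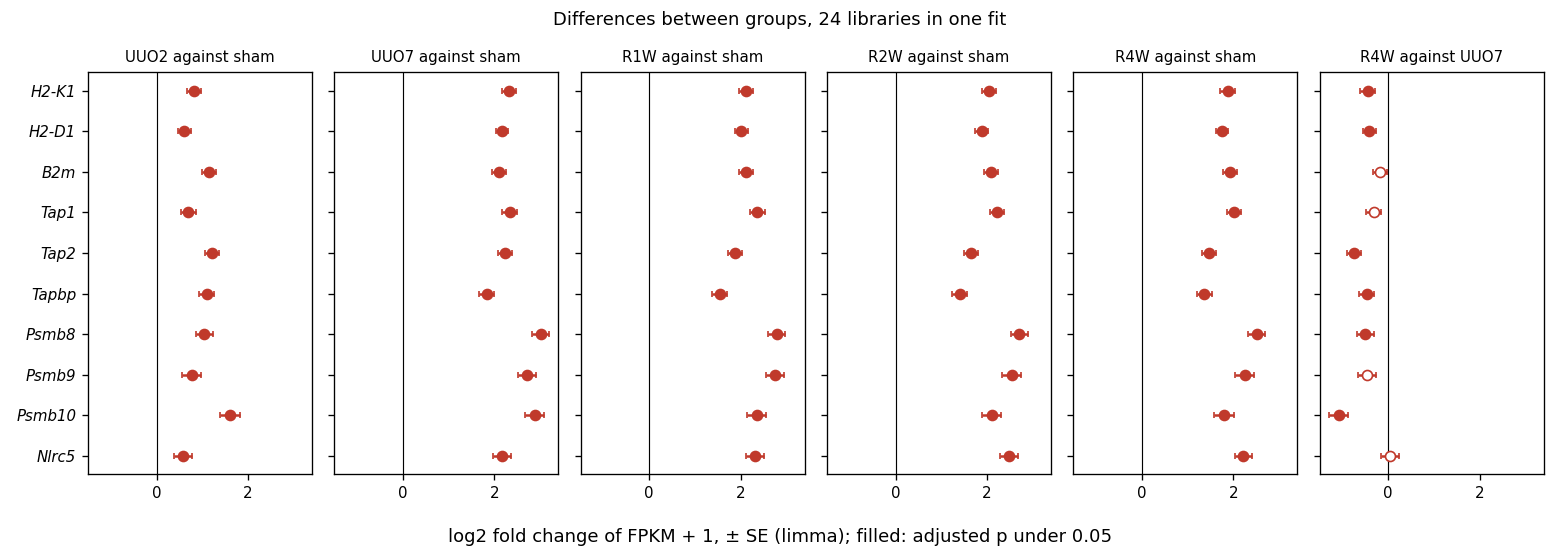
Log2 fold change of FPKM + 1 (x axis, ± SE from limma) for the 10 genes (y axis) in 6 comparisons; filled points passed an adjusted p of 0.05. All 10 points are filled and right of 0 in the 5 comparisons with sham, and 6 are filled and left of 0 in R4W against UUO7.

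After 1 week of reversal the means of the 10 genes ran from 0.69 (Psmb10) and 0.78 (Tap2) to 1.12 (Nlrc5) times those of UUO7. In R1W against UUO7 limma called 0 of the 10 genes, where 14.5% of all genes were called in either direction, and 0 after rescaling (7.26% of all genes higher and 7.14% lower). At an unadjusted p under 0.05 there were 2 on both scales, Tap2 and Psmb10, both lower. The log2 differences ran from -0.53 (Psmb10, limma adjusted p = 0.0950) to 0.13 (Nlrc5). In a fit without the UUO2 libraries 2 genes were called lower, Tap2 (limma adjusted p = 0.0460) and Psmb10 (0.0430). As deposited, the libraries of R1W and UUO7 overlapped in 10 of the 10 genes, where for 7.78% of all genes R1W lay wholly above UUO7 and for 12.6% wholly below. After rescaling R1W lay wholly below for 2 of the 10, H2-K1 and Psmb8 (11.1% of all genes). R1W replicate 1 was the lowest of its group for 10 of 10 genes, for example H2-K1 at 623.56 FPKM against 745.54 to 845.55 in the others.

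At R1W, R2W and R4W 10 of the 10 genes were called above sham, where 59.4%, 56.1% and 54.8% of all genes were. The median log2 fold change of the 10 genes was 2.21, 2.10 and 1.90 in these groups, and that of all genes was 0.37, 0.32 and 0.30. These comparisons share the sham animals. For each of the 10 genes every library of the 3 recovery groups lay above every sham library, which held for 53.4%, 50.6% and 52.9% of all genes. After rescaling the 10 calls stood in each group, where 33.7%, 31.1% and 28.9% of all genes were called higher, and the medians of the 10 were 1.79, 1.71 and 1.53.

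In R4W against UUO7 limma called 6 of 10 genes lower, where 30.8% of all genes were called lower. Besides Psmb10 these were Tap2 at -0.75, Psmb8 at -0.50, Tapbp at -0.47, H2-K1 at -0.45 and H2-D1 at -0.41 on the log2 scale. The other 4 did not pass the test: Psmb9 at -0.46 (limma adjusted p = 0.0687), Tap1 at -0.32 (0.101), B2m at -0.18 and Nlrc5 at 0.05. Psmb9 was called with a pseudocount of 10 (limma adjusted p = 0.0282), in a fit on these 2 groups (0.0235) and without UUO2 in the fit (0.0159), and Tap1 with R4W replicate 2 placed in R2W (0.0474), which made 7 calls in each. For 8 of the 10, B2m and Nlrc5 left aside, all R4W libraries lay below all UUO7 libraries, as for 31.3% of all genes; after rescaling this held for 6, without Tap1 and Tapbp (23.6% of all genes). Psmb10 was the 1 gene with a fall of at least 1 on the log2 scale (2.92% of all genes). The count rested in part on R4W replicate 4, the lowest of its group for 10 of 10 genes. Without that library 2 genes were called lower, Tap2 and Psmb10, and H2-K1 was at -0.30 (limma adjusted p = 0.117). The count was also 2 without UUO7 replicate 3 and 3 without UUO7 replicate 4. After rescaling 5 were called lower (23.2% of all genes), as Psmb8 was at -0.39 (limma adjusted p = 0.0532). In R4W against R1W limma called 0 of the 10 (19.1% of all genes in either direction, or 2830, a count that was 161 in a fit on these 2 groups and 728 to 3491 without single animals), and 4 had an unadjusted p under 0.05 (Tap1, Tap2, Psmb9 and Psmb10, all lower). The log2 differences ran from -0.56 (Psmb10) to -0.08 (Nlrc5). The count of calls was 3 in a fit without UUO2 (Tap2, Psmb9 and Psmb10, all lower), and 4 without R1W replicate 1, when Tap1 was called as well.

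The order of the 6 group means was UUO7, R1W, R2W, R4W, UUO2 and sham, from highest to lowest, for H2-K1, H2-D1, Tap2, Tapbp, Psmb8 and Psmb10. B2m, Tap1 and Psmb9 had their highest mean in R1W and Nlrc5 in R2W. After rescaling the mean of B2m was highest in R2W, and that of Psmb10 was higher in UUO2 than in R4W. Neighbours in this order among UUO7, R1W, R2W and R4W overlapped in all 10 genes on the deposited scale, with the exceptions after rescaling given above. The step from the lowest of those 4 groups to UUO2 had no overlap in H2-K1, H2-D1, B2m, Tap1, Psmb8, Psmb9 and Nlrc5, and overlapped in Tap2, Tapbp and Psmb10.

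Each immunosubunit takes the place of a constitutive subunit: Psmb8 that of Psmb5, Psmb9 that of Psmb6 and Psmb10 that of Psmb7. The constitutive genes differed less between sham and UUO7. In sham, UUO7 and R4W the level of Psmb5 was 213 ± 7.43, 291 ± 32.5 and 187 ± 9.29 FPKM (SD, n = 4). In the same order Psmb6 was 194 ± 4.27, 270 ± 14.2 and 199.9 ± 9.60 FPKM, and Psmb7 was 123 ± 6.68, 108 ± 2.93 and 106 ± 3.10 FPKM. Psmb8 was therefore 4.71% ± 1.15 of the Psmb5 level in sham and 30.02% ± 3.84 in UUO7. Psmb9 was 2.38% ± 0.386 of Psmb6 in sham and 13.3% ± 1.09 in UUO7, and Psmb10 15.7% ± 4.47 of Psmb7 in sham and 135% ± 23.7 in UUO7. These percentages are ratios of FPKM within a library, with no pseudocount, so the scaling of libraries cancels in them. For the tests 1 was added to each FPKM before the log2 ratio was taken, which raises the ratio where the immunosubunit is low.

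The log2 ratio of Psmb8 to Psmb5 was -4.49, -3.88, -4.29 and -4.55 in sham, -1.90, -1.61, -1.88 and -1.54 in UUO7, and -1.67, -1.33, -1.40 and -2.03 in R4W. UUO7 and R4W overlapped and both lay above sham. The log2 ratio rose from sham to UUO7 by 2.57 for Psmb8, 2.24 for Psmb9 and 3.06 for Psmb10. It was 2.70, 2.21 and 2.01 higher in R4W than in sham. Each of these 6 differences had a two-sided exact permutation p of 0.0286, the smallest that 4 against 4 animals allow, and an adjusted p of 0.0429 over the 9 ratio tests. From UUO7 to R1W the log2 ratio differed by 0.017 for Psmb8 (exact p = 0.914), 0.27 for Psmb9 (exact p = 0.114) and -0.61 for Psmb10 (exact p = 0.0571, adjusted 0.0735). Psmb10 was 88.6% ± 18.0 of Psmb7 in R1W, 78.3% ± 18.9 in R2W and 64.8% ± 10.3 in R4W, while Psmb8 was 30.6% ± 6.59, 33.4% ± 7.77 and 33.0% ± 6.94 of Psmb5.

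**Figure D3:**
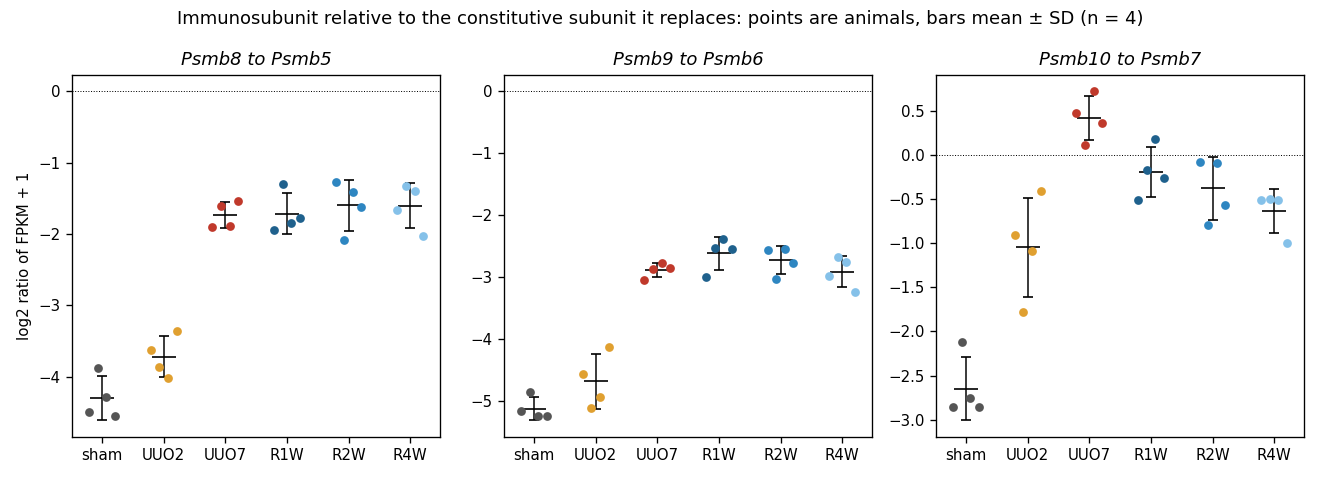
Log2 ratio of each immunosubunit to the constitutive subunit it replaces (y axis, FPKM + 1 of each; the dotted line marks equal levels) in the 6 groups (x axis), with animals as points and mean ± SD (n = 4) as bars. All 3 ratios are higher in UUO7 than in sham without overlap, and only Psmb10 to Psmb7 crosses the line of equal levels.

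The wider pathway was read from lists of genes, on the deposited scale and after rescaling. Of 17 other class I and class I-like genes with a row, 15 were higher and 0 lower in UUO7 against sham, and 14 and 2 after rescaling; the median log2 fold change was 1.18, where that of all genes was 0.42. Of all genes 60.1% were higher and 17.8% lower in this comparison, and 36.5% each way after rescaling. H2-Q4, a heavy chain of the Qa region, rose from 17.8 ± 1.89 to 99.5 ± 10.5 FPKM (SD, n = 4), and H2-M3, which presents formylated peptides, from 1.73 ± 0.323 to 9.89 ± 0.412 FPKM. H2-T23, which encodes Qa-1, was 80.0 ± 2.21 FPKM in sham and 133 ± 12.6 in UUO7, a log2 fold change of 0.72, or 0.24 after rescaling. H2-T22 was 67.4 ± 2.20 FPKM in sham and 73.1 ± 5.38 in UUO7; its log2 difference was 0.11 as deposited, which did not pass the test (limma adjusted p = 0.172), and -0.37 after rescaling, which did (0.000597). H2-T22 and H2-T23 share 14.2% and 7.28% of their 100-base windows with other genes, so their fragments may be divided uncertainly.

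Some of these genes had a different course from the 10. In UUO2 against sham 2 of the 17 were higher and 5 lower (32.3% and 17.0% of all genes), with a median of -0.05 where the 10 genes had 0.93. H2-Q6 was 16.77, 17.97, 16.07 and 15.06 FPKM in sham and 7.46, 8.07, 8.52 and 14.45 FPKM in UUO2, so all 4 UUO2 animals lay below all sham animals. The log2 fold change of H2-Q6 was -0.76 (SE 0.16, limma adjusted p = 0.000593), and H2-Q7 fell by 0.71. In UUO7 both were above sham, by 1.47 and 1.81, and in R4W by 1.88 and 2.16. H2-Q6 was higher in R4W than in UUO7 by 0.42 (limma adjusted p = 0.0392), and H2-Q7 by 0.35, which did not pass the test (0.0851) but did after rescaling, at 0.46 (0.0174). H2-Q6 and H2-Q7 share 10.8% and 16.4% of their 100-base windows with other genes, mostly each other, so the division of fragments between them is uncertain.

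Of 11 loading and trimming partners 8 were higher and 0 lower in UUO7 against sham, with 4 higher and 3 lower after rescaling (of all genes 60.1% and 17.8%, and 36.5% each way). Tapbpl, a tapasin relative that edits peptides, rose from 5.43 ± 0.290 to 17.7 ± 0.578 FPKM, and Erap1, which trims peptides in the endoplasmic reticulum, from 5.65 ± 0.749 to 10.96 ± 0.737 FPKM. Sec61b, a translocon subunit, rose with a log2 fold change of 0.94. Pdia3, an oxidoreductase of the loading complex, rose by 0.39 as deposited and was at -0.09 after rescaling. The chaperones Calr and Canx did not pass the test on the deposited scale, with 380 ± 19.3 against 354 ± 16.6 FPKM for Calr and 119 ± 5.18 against 131 ± 6.32 FPKM for Canx, and both were lower after rescaling (-0.38 and -0.61). In UUO2 Canx was higher than sham on both scales, by 0.45 and 0.31.

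Psme1 and Psme2 encode PA28, an activator ring that opens the proteasome, and both rose in UUO7. In sham, UUO7 and R4W the level of Psme1 was 60.8 ± 7.39, 210.1 ± 21.3 and 128 ± 9.41 FPKM, and that of Psme2 67.9 ± 16.7, 261 ± 25.7 and 154 ± 23.6 FPKM (SD, n = 4). Their log2 fold changes in UUO7 against sham were 1.77 and 1.95, and in R4W against UUO7 -0.71 and -0.77, with limma adjusted p of 0.000186 and 0.00021 for the latter. Of the list of 9 activator and assembly genes 6 were higher and 1 lower in UUO7 against sham, and 4 and 3 after rescaling. The shares of all genes were 60.1% and 17.8%, and 36.5% each way after rescaling. In R4W against UUO7 7 of the 9 were lower and 1 higher, and 6 and 1 after rescaling. Of all genes 30.8% were lower and 17.6% higher there, and 23.2% and 25.1% after rescaling.

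In UUO7 against sham the rest of the proteasome moved less than the 10 genes and depended on the scale. Of 14 constitutive subunits of the 20S core 13 were higher and 1 lower (Psmb7) in UUO7 against sham, with a median of 0.51, but 3 higher and 2 lower after rescaling, with a median of 0.03. The furthest were Psma7 at 0.73 and Psma5 at 0.68 as deposited. Of 18 genes of the 19S cap 12 were higher and 0 lower as deposited (60.1% and 17.8% of all genes), and 1 higher and 10 lower after rescaling (36.5% each way); Psmd8 (0.96) and Psmd13 (0.57) were the furthest as deposited. In R4W against sham 5 of the 14 core genes were higher and 1 lower as deposited (54.8% and 11.6% of all genes), and 0 higher and 10 lower after rescaling (28.9% and 31.1%). Between UUO7 and R4W the core genes fell about as much as the 10 genes, with medians of -0.40 and -0.46. There 13 of the 14 were lower, and 12 after rescaling (30.8% and 23.2% of all genes). In R4W against R1W 13 were lower, and 6 after rescaling (14.1% and 8.60%). The median was -0.35, against -0.27 for the 10.

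**Figure D4:**
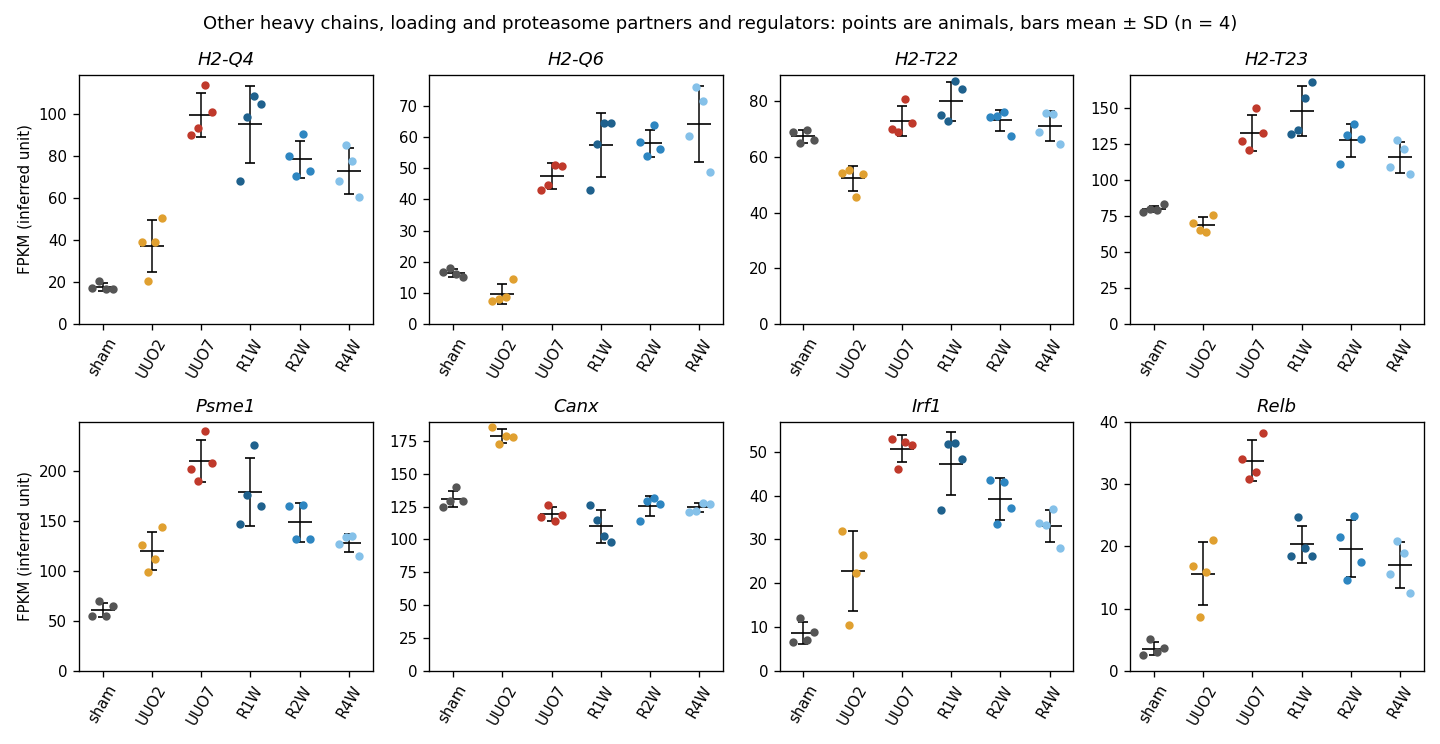
Levels of 8 partner genes in every kidney (y axis, FPKM from 0; x axis, the 6 groups), with animals as points and mean ± SD (n = 4) as bars. H2-Q4, Psme1 and Irf1 are higher in UUO7 than in sham by more than the spread, H2-Q6 dips in UUO2, and Canx is highest in UUO2.

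Of 30 interferon signalling genes and class I regulators 29 were higher and 1 lower in UUO7 against sham, and 21 and 2 after rescaling. The shares of all genes were 60.1% higher and 17.8% lower, and 36.5% each way after rescaling. The lower gene as deposited was Nfyc, a subunit of the CCAAT-binding factor, named after its value was seen. Irf1, a transcription factor induced by interferons, was at 8.63 ± 2.47, 50.7 ± 3.09 and 33.0 ± 3.69 FPKM in sham, UUO7 and R4W (SD, n = 4). The 2 largest log2 fold changes were those of Relb (2.96) and Nfkb2 (2.54), subunits of the noncanonical NF-kappaB pathway. Irf8, a factor of myeloid cells, rose by 1.62 and Rfx5, a subunit of the complex at the SXY module, by 0.93. In R4W against UUO7 Relb and Nfkb2 fell by 0.97 and 0.98 and Irf1 by 0.61, whereas Irf8 differed by 0.11 and did not pass the test (limma adjusted p = 0.580). The call for Irf1 was not made after rescaling, where it was at -0.50 (limma adjusted p = 0.0549). Ifng is not analysed here.

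Pan-leukocyte and macrophage markers were mostly higher than sham in UUO2, UUO7 and R4W, as the 10 genes were, while lymphocyte markers were not called higher in UUO2. Over 5 pan-leukocyte markers the summed level was 14.2 to 26.4 FPKM in sham, 36.2 to 97.5 in UUO2 and 268 to 320 in UUO7, and 161 to 317 in R4W; 5 of 5 were called higher in UUO2, UUO7 and R4W against sham, where 32.3%, 60.1% and 54.8% of all genes were. Over 9 macrophage markers it was 55.7 to 95.7 FPKM in sham, 100 to 227 in UUO2, 1159 to 1376 in UUO7 and 788 to 1568 in R4W, with 9 of 9 called higher in UUO7. In UUO2 7 of the 9 were called higher and 1 lower, Csf1r, the receptor of a macrophage growth factor, at 18.3 FPKM in sham and 8.38 in UUO2 (named after its value was seen). The 9 T and NK cell markers with a row summed to 2.88 to 4.18 FPKM in sham, 2.84 to 6.04 in UUO2, 18.5 to 29.9 in UUO7 and 26.8 to 51.2 in R4W. In UUO2 against sham limma called 0 of these 9 higher and 1 lower, where 32.3% of all genes were higher and 17.0% lower. The lower one was Trac, a T cell receptor constant region, at 1.49 FPKM in sham and 0.585 in UUO2; at an unadjusted p under 0.05 there was besides it 1 higher, Cd8a (both named after their values were seen). In UUO7 against sham 9 of 9 were called higher. In R4W against UUO7, where 6 of the 10 class I genes were lower and 0 higher, 6 of the 9 T and NK markers were higher and 1 lower (17.6% and 30.8% of all genes). In the same comparison 2 of 3 B and plasma cell markers were higher, and limma called 0 of 5 pan-leukocyte and 0 of 9 macrophage markers. At an unadjusted p under 0.05 there were 0 of the former, and 1 higher and 3 lower of the latter; after rescaling 1 macrophage marker was called higher. The median log2 difference between R4W and UUO7 was -0.24 for the pan-leukocyte and -0.46 for the macrophage markers, and -0.46 for the 10 genes. For 4 of the 9 macrophage markers all R4W libraries lay below all UUO7 libraries (31.3% of all genes). The dendritic cell markers (4 with a row) summed to 2.80 to 4.26 FPKM in sham and 24.4 to 26.5 in UUO7, the 3 B and plasma cell markers to 2.97 to 4.86 and 8.34 to 12.4 FPKM, and the 3 neutrophil markers to 0.99 to 1.53 and 10.9 to 17.3 FPKM. Their part in the class I result was not tested.

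Resident cell types changed as well. The 6 endothelial markers summed to 50.6 to 89.9 FPKM in sham, 25.6 to 58.4 in UUO2 and 136 to 151 in UUO7, with 4 of the 6 called lower in UUO2 (17.0% of all genes) and 5 higher in UUO7 (60.1%). After rescaling 6 of the 6 were lower in UUO2 (25.5% of all genes) and 4 higher in UUO7 (36.5%). The 6 proximal tubule markers summed to 771 to 959 FPKM in UUO7 and 1688 to 2400 in R4W, below the sham range in both. The 5 distal nephron markers summed to 2476 to 3048 FPKM in sham, 1306 to 1672 in UUO7 and 2431 to 3148 in R4W. Urothelial markers summed to 19.3 to 36.6 FPKM in UUO7 and 46.2 to 151 in R4W. The part of these shifts in the class I result was not tested.

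Within groups the 10 genes tended to be high or low in the same animals. Sham replicate 2 was the highest of its group in 10 of 10 genes, and it also had the highest pan-leukocyte sum of its group, 26.4 FPKM, and the adipose and urothelial markers given above. UUO2 replicate 4 was the highest in 10 of 10 genes, with a pan-leukocyte sum of 97.5 FPKM against 36.2 to 64.4 in the other 3. R2W replicate 2 and R4W replicate 4 were the lowest in 10 of 10 genes, with the lowest pan-leukocyte sums of their groups, 211 and 161 FPKM. R1W replicate 1 was lowest in 10 of 10 genes and had the lowest sum of R1W, 249 FPKM. The order of the other animals did not always follow the sum. In R2W replicate 3 was highest in 8 of the 10 genes with a sum of 344 FPKM, while replicate 1 had the highest sum, 439 FPKM. In R4W replicate 2 was highest in 7 genes with a sum of 298 FPKM, and replicate 3 had the highest, 317 FPKM. In UUO7 no animal was highest in more than 6 of the 10, and replicate 2, with the highest sum, 320 FPKM, was lowest in 4. The sum of the proximal tubule markers, most of which is Slc34a1, a phosphate transporter, was the highest of the group in R1W replicate 1 (1809.6 FPKM), R2W replicate 2 (2321 FPKM), R4W replicate 4 (2400.4 FPKM) and UUO2 replicate 2 (2422 FPKM), which was the lowest in 9 of 10 class I genes. It was the lowest of the group in sham replicate 2 (3439.98 FPKM), although 1 of the 6 markers, Slc13a3, was the highest of the group there (225.93 FPKM; named after its value was seen). In UUO2 replicate 4 the sum was 1515 FPKM, and the lowest of UUO2 was replicate 3 at 1459 FPKM. The part of these sums in the class I values was not tested.

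**Figure D5:**
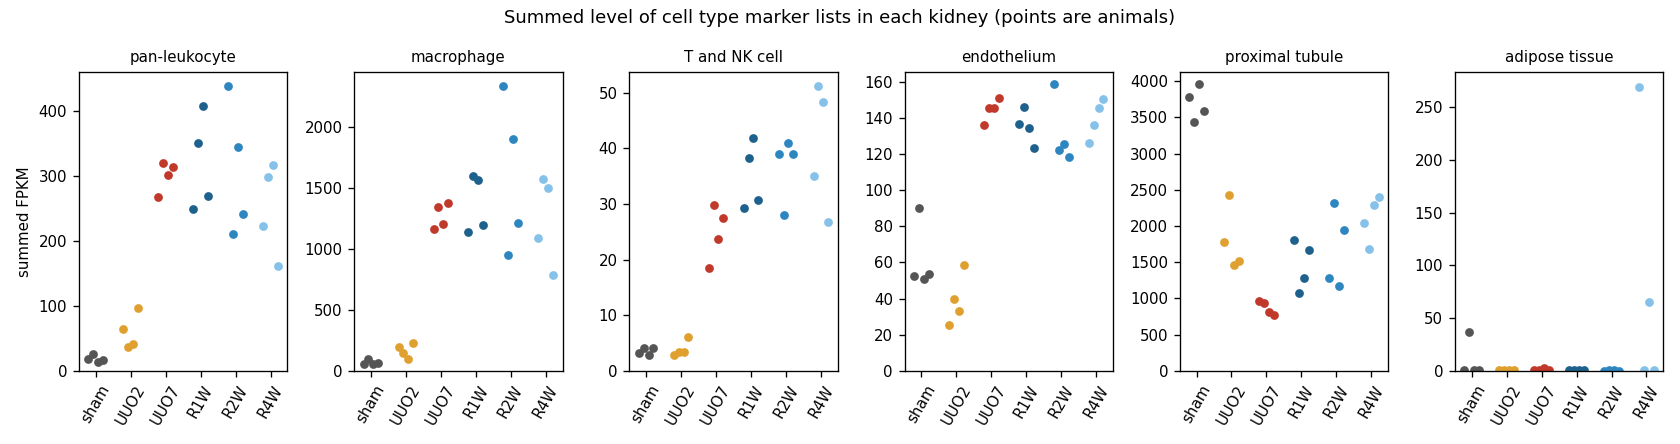
Summed level of 6 lists of cell type markers in every kidney (y axis, FPKM from 0; x axis, the 6 groups; points are animals). The leukocyte lists and endothelium are higher in UUO7 than in sham, proximal tubule is lower, and adipose markers stand out in sham replicate 2 and R4W replicates 1 and 3.

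The genes whose course was most like that of the 10 were found by Pearson's r over the 24 libraries between their log2(FPKM + 1) and the mean of the z-scored log2 values of the 10; the points share groups, so r is a description. The first 8 outside the 10 were Cd74 (r = 0.993), Tmem173 (0.993), Fxyd5 (0.991), Bst2 (0.991), H2-Q4 (0.990), H2-Ab1 (0.990), Ptger4 (0.990) and Cmtm3 (0.990). Cd74, the invariant chain of MHC class II, averaged 86.3, 1623 and 1122 FPKM in sham, UUO7 and R4W, and H2-Ab1, a class II beta chain, 43.8, 774 and 540 FPKM. Bst2, tetherin, which is induced by interferon, averaged 18.4, 146 and 80.8 FPKM, and Tmem173, which encodes STING, 1.41, 24.7 and 14.6 FPKM.

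In the authors' deposited table the 10 genes were also all higher than sham in UUO2, UUO7, R1W, R2W and R4W at an adjusted p under 0.05, where 26.7%, 35.8%, 31.9%, 30.7% and 30.9% of the genes with an adjusted p in that table were higher. For UUO7 against sham the log2 fold changes in the authors' deposited table were 1.82 for H2-K1, 1.61 for B2m, 2.71 for Psmb8 and 1.97 for Nlrc5. The limma values after rescaling were 1.84, 1.62, 2.55 and 1.81 for the same genes. For R4W against UUO7 the authors' deposited table gave 8 of the 10 genes as lower and 1 as higher, against 27.3% and 26.0% of its genes. The higher one was Nlrc5, at 0.48 with an adjusted p of 0.00417 in the authors' deposited table, where the difference found here was 0.05 as deposited and 0.15 after rescaling. Psmb10 alone was lower in R1W than in UUO7 in the authors' deposited table (11.2% of its genes), and Tap2 and Psmb10 were lower in R4W than in R1W (9.13%).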

How the data were processed

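The authors deposited one value per gene and library for 14785 genes and did not state the unit. The deposited values were read as FPKM, because column sums differ (717415 to 830179) while length-weighted sums vary less. The submitters' processing notes name FastQC, RSEM, Bowtie2 and DESeq2 and build mm10, without roles. The log2 fold changes and adjusted p-values of 15 comparisons are the authors' deposited results, and the test behind them is not given in the sources used here.

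Group differences were tested with limma 3.58.1 (R 4.3.3; eBayes with a mean-variance trend) after taking log2(FPKM + 1), a scale that understates changes of low genes, with 24 libraries in one model, one coefficient per group and Benjamini-Hochberg adjustment over all genes. The fit was also run on simulated data in which few genes changed. Far more genes were called in the real data, so that run does not show how reliable the calls are. Ratios were compared by exact permutation (scipy 1.17.1). The 10 genes, the gene lists and the tests were chosen with earlier results of these data known. All 10 genes are named; from each pathway list the named genes were set by role, plus the 2 called genes of greatest change in UUO7 against sham; 1 gene so set is not reported here. Alternatives were another scaling, pseudocounts of 0.1 and 10, a minimum mean of 5, other sets of libraries in the fit, a replicate block, a minimum log2 change of 1, moving R4W replicate 2, and leaving out each replicate.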

Additional observations from a re-analysis of the deposited data

Results flagged for a closer look

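In 78 checks of a group of 4 animals, 6 found an animal whose gap to the nearest of the others was beyond Dixon's 95% limit; about 3.9 are due by chance, and the measures are not independent. Tap1 was 24.15 FPKM in R1W replicate 1, and the other 3 animals lay between 35.99 and 36.13. Nlrc5 was 8.63 FPKM in the same animal, with the others between 12.84 and 13.65. Psmb10 was 25.97 FPKM in sham replicate 2 (others 16.80 to 17.05), and its log2 ratio to Psmb7 there was -2.12 (others -2.86 to -2.76). Psmb10 was 53.82 FPKM in R4W replicate 4 (others 71.45 to 74.47), and its log2 ratio to Psmb7 there was -1.005 (others -0.52 to -0.50). Without sham replicate 2 that ratio was 3.24 higher in UUO7 than in sham, and 2.19 higher in R4W.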

How the results depend on the processing

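Over the fold changes of the 10 genes and all alternatives, 1405 values kept direction and side of the threshold, 30 lost the call, 14 gained it and 11 changed sign; the causes were not tested. Replicate numbers were not taken to pair the animals, because in none of the 9 comparisons were all correlations of same-numbered libraries above 0.1. That rule cannot exclude a weak or partial pairing. In R1W against UUO7 the correlations ran from -0.077 to 0.45, with a mean of 0.15. The replicate block changed no call of the 10 genes in any of the 9 comparisons (for example 6 in R4W against UUO7), and the paired ratio differences were again 2.57, 2.24 and 3.06 in UUO7 and 2.70, 2.21 and 2.01 in R4W against sham, each with an exact p of 0.125, the smallest 4 pairs allow. With R4W replicate 2 in R2W the R4W differences were 2.60, 2.13 and 1.97 (exact p = 0.0571, the smallest 3 against 4 allow), and Nlrc5 in R4W against UUO7 was -0.02.

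The number of the 10 genes called was 2 in R1W against UUO7 and 3 in R4W against R1W without UUO2 in the fit, and 1 in R4W against R1W with a pseudocount of 10. With a log2 change of at least 1 it was 1 in R4W against UUO7 and 5 in UUO2 against sham.

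Leaving out 1 animal at a time gave 0 to 4 calls in R4W against R1W, 2 to 6 in R4W against UUO7, 9 to 10 in UUO2 against sham, 0 in R1W against UUO7 and 10 in each other comparison. The ratio differences then ran from 2.49 to 2.71 (Psmb8), 2.20 to 2.33 (Psmb9) and 2.96 to 3.24 (Psmb10) in UUO7 against sham. They ran from 2.60 to 2.84, 2.13 to 2.32 and 1.94 to 2.19 in R4W against sham, and from -0.12 to 0.091, 0.19 to 0.40 and -0.73 to -0.50 in R1W against UUO7. With 3 animals in a group the exact p cannot fall below 0.0571. Signs changed in R1W against UUO7 for Tap1 (-0.019 to 0.17), B2m (-0.095 to 0.080) and Psmb9 (-0.059 to 0.16), and for Nlrc5 in R4W against R1W (-0.22 to 0.057) and against UUO7 (-0.020 to 0.19).

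Over all genes, the count in R4W against R1W went from 2830 to 161 in a fit on those 2 groups, to 114 with a minimum log2 change of 1 and to 728 to 3491 without single animals; in R1W against UUO7 the latter gave 1116 to 2535 where 2145 were reported. A minimum log2 change of 1 gave 1294, 4076, 3019, 2454 and 2182 genes against sham, in order of time, in place of 7279, 11512, 10954, 10204 and 9811. In the 20 libraries with an implied depth Nlrc5 had the lowest count, 103 fragments, and Psmb9 the next, 131. These counts rest on the mean length of a gene's annotated transcripts, and the depth of the UUO2 libraries is unknown.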
